A study of Rattus norvegicus with 2 samples.

Results

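H3K27me3 was mapped by ChIP-seq in sciatic nerve of male Sprague Dawley rats, and the domains described here are wide stretches of the autosomes where many called regions lay close together at a low ChIP to input ratio. Regions on chromosomes 1 to 20 with gaps of 3 kb or less were merged. The domains were selected on 2 measured properties, a span of 20 kb or more and a ratio below 10. The ratio is the summed ChIP tags of the called regions over their summed input tags, each scaled to its total. Of 41856 merged domains on the autosomes, 528 spanned 20 kb or more, and 249 of these (47.2%) had a ratio below 10. These 249 low-ratio domains were built from 5605 of the 90174 regions in the list. The other 279 wide domains, with a ratio of 10 or more, are called high-ratio domains below. Because span and ratio chose the domains, every value that comes from the same tags and regions is given as a description, without a test.

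The 2 libraries form 1 group of whole nerve with no treatment named in the labels, although the name of the tag directory in the file header carries the word Sham. Myelinating and non-myelinating Schwann cells share the nerve with fibroblasts, endothelial, perineurial and immune cells, so a low ratio in a mixed tissue can stand for a weak mark in many cells or a strong mark in few, and these cannot be told apart here. Regions were called by the authors on 1 combined ChIP set of 46.8 M tags against 1 combined input of 41.2 M tags. The header does not say which libraries were combined; the ChIP set is taken here to be the 2 libraries of the series pooled. The table has no value per library, so no spread between animals can be given. Intervals are 95% counting intervals, and a spread over the 20 autosomes is not a spread over animals.

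H3K27me3 is the trimethyl mark that the Polycomb repressive complex 2 places on lysine 27 of histone H3. The complex both writes the mark and binds it, which lets the mark extend from sites of recruitment into neighbouring chromatin. Known forms of the mark include strong broad blankets over silenced developmental genes and weaker, more diffuse coverage of chromatin that is not transcribed. In Schwann cells the mark is studied for its place in the repression of genes that respond to nerve injury. The sources used here do not name the genome build of the positions, so no gene is placed in these domains, and coordinates below are those written in the file.

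The low-ratio domains were broken into many short regions with more uncovered than covered sequence. They had a median of 19 regions (quartiles 16 and 25, range 10 to 88) over a median span of 26.9 kb (quartiles 22.9 and 33.9 kb). Called regions covered a median of 40.8% of the span (quartiles 30.9% and 52.9%), and 176 of the 249 domains were covered to less than 50%. Uncovered gaps summed to 4.601 Mb against 3.56 Mb of called regions. In the high-ratio domains the median covered share was 68.8% (58.1% and 77.4%), and 39 of 279 were covered to less than 50%. The ranges of the 2 kinds overlapped widely, from 13.4% to 84.4% and from 21.3% to 98.6%. On each of the 20 autosomes the median covered share was lower in the low-ratio domains, at 42.4% ± 7.5 against 68.3% ± 4.8 (SD over autosomes).

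The number of pieces per length differed in the same way. Low-ratio domains held a median of 7.11 regions per 10 kb of span (6.19 and 7.79) and high-ratio domains 4.28 (3.32 and 5.38), and the median was higher in low-ratio domains on 20 of 20 autosomes. The widest region within a low-ratio domain measured 2.97 kb in the median (1.71 and 4.49 kb), against 11.0 kb (6.59 and 15.9 kb) in high-ratio domains. No region reached 2 kb in 76 of the 249 low-ratio domains (30.5%), while 2 of the 279 high-ratio domains lacked such a region. A region of 5 kb or more was present in 56 low-ratio and in 245 high-ratio domains. The widest region held more than 50% of the covered length in 19 low-ratio domains and in 115 high-ratio domains. Gap lengths differed less than widths, but merging held every gap to 3 kb or less, which limits how far gaps can differ. The median gap was 614 bp (370 and 1142 bp) over 5356 gaps in low-ratio domains and 533 bp (333.5 and 1017 bp) over 4171 gaps in high-ratio domains. Gaps over 2 kb made up 8.63% and 7.46%. The caller stitches windows that each pass a minimum of 14 tags, so width, covered share and tag density are not independent of one another or of the ratio.

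**Figure D1:**
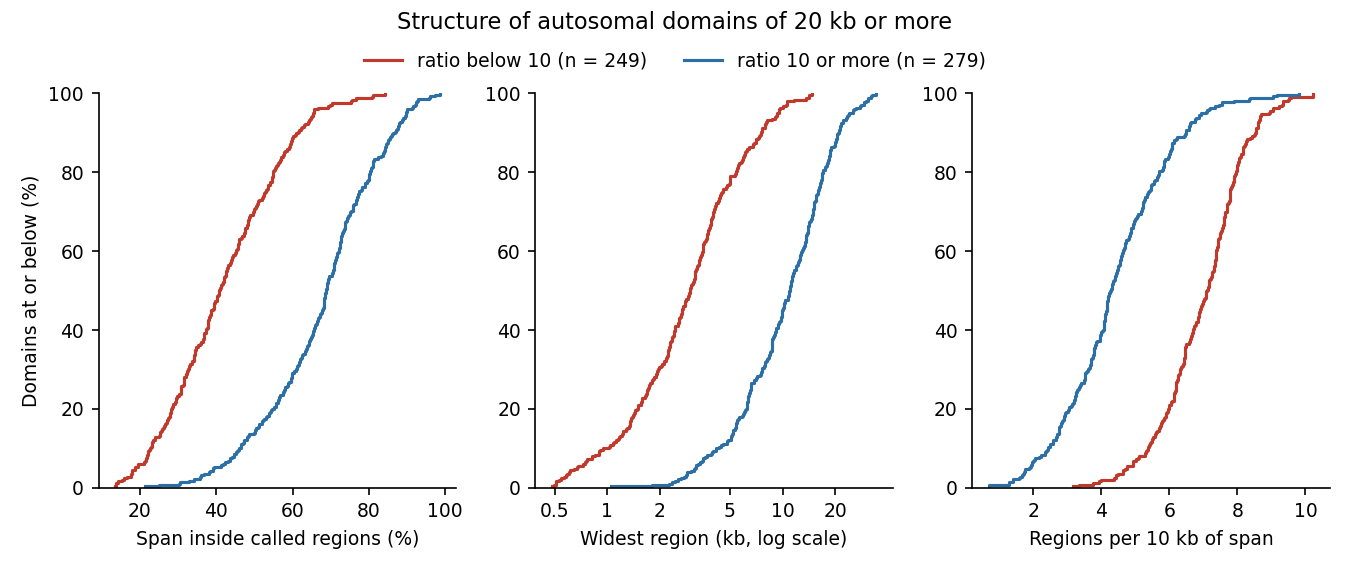
Cumulative shares of the 249 low-ratio (red) and 279 high-ratio (blue) autosomal domains of 20 kb or more by covered share of the span (%), width of the widest region (kb, log scale) and regions per 10 kb of span. The red curves lie at lower covered shares and widths, with medians of 40.8% and 2.97 kb against 68.8% and 11.0 kb, and at more regions per 10 kb.

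Low-ratio domains showed little of a covered core. When each span was divided into 5 equal parts, the median covered share in order along the chromosome was 30.8%, 42.8%, 38.9%, 37.9% and 33.1% in low-ratio domains. In high-ratio domains it was 51.5%, 83.0%, 90.3%, 87.2% and 49.3%. The 3 middle parts were covered to a greater extent than the 2 outer parts in 149 of 249 low-ratio domains and in 247 of 279 high-ratio domains.

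Low ratios went mostly with few ChIP tags per kb and less with many input tags. Low-ratio domains had a median of 135.9 ChIP tags per kb of called region (125.7 and 149.4) and high-ratio domains 224.3 (184.5 and 265.9), a quotient of 0.606. Input was 15.3 tags per kb (13.9 and 17.1) against 14.3 (12.9 and 15.9), a quotient of 1.07. By autosome the median ChIP density was 140.6 ± 13.7 against 227.5 ± 20.1 tags per kb and lay lower in low-ratio domains on 20 of 20 autosomes. The median input density was 15.5 ± 1.2 against 14.6 ± 1.1 and lay higher in low-ratio domains on 17 of 20. For scale, 14 tags in a window of 150 bp, the least that the caller accepted, equal 93.3 tags per kb. Regions outside all wide domains held 140.9 tags per kb, and the pooled regions of low-ratio domains held 149.9. The pooled ratio of low-ratio domains was 8.08 (8.01 to 8.15), and that of the regions outside wide domains was 8.77 (8.74 to 8.80). Selection by ratio was applied to the wide domains only, so nothing is read from this difference in pooled ratio. The median clonality value given by the authors' caller was 0.91 in low-ratio and 0.89 in high-ratio domains.

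**Figure D2:**
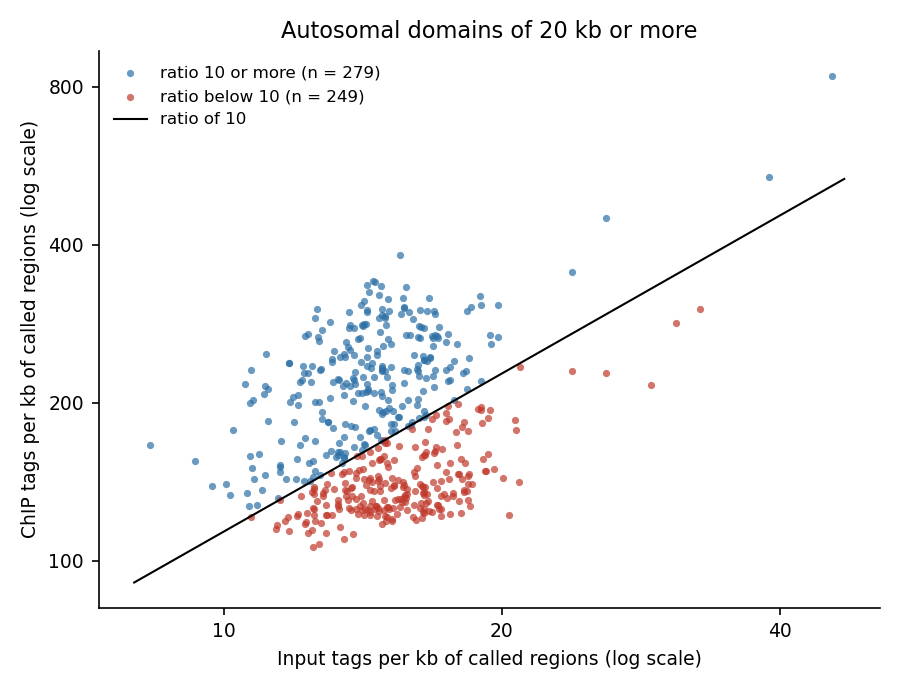
ChIP tags per kb against input tags per kb of called regions, both on log scales, for 249 low-ratio (red) and 279 high-ratio (blue) domains, 1 point a domain; the line marks the ratio of 10 that separates them. All red points lie within the input range of the blue points, most of them at 120 to 150 ChIP tags per kb. At input densities from 23.9 to 32.8, 5 lie apart from the other red points.

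A ratio below 10 was the commoner state among shorter domains. It was found in 63.6% of domains under 5 kb, in 73.8% of those from 5 to 10 kb and in 71.3% of those from 10 to 20 kb. Of the 37527 domains under 5 kb, 2789 had no input tag and thus no ratio, and the share was 68.7% of those with one. The share was 54.3% (48.4% to 60.2%) of 289 domains of 20 to 30 kb, 38.8% (31.5% to 46.6%) of 170 domains of 30 to 50 kb and 36.8% (24.4% to 50.7%) of 57 domains of 50 to 100 kb. Of the 12 domains of 100 kb or more, 5 had a ratio below 10. Most low-ratio domains were thus of moderate span, with 157 of 249 at 20 to 30 kb and 26 at 50 kb or more.

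At the same region width, the narrowest pieces of low-ratio domains held about as many ChIP tags per kb as narrow regions elsewhere, and the wider pieces held fewer than those of high-ratio domains. Regions of 150 bp or less held 131.3 ± 7.2 tags per kb in low-ratio domains (SD over 20 autosomes), 130.3 ± 3.6 in high-ratio domains and 130.0 ± 1.0 outside wide domains. Such a region is 1 window that passed the caller's minimum of 14 tags and was not extended, which limits how far these densities can differ. Their ratios were 8.21 (7.93 to 8.50), 8.59 (8.24 to 8.97) and 8.25 (8.20 to 8.31). Among regions of 0.5 to 2 kb the density was 132.4 ± 13.2 in low-ratio and 144.3 ± 13.9 in high-ratio domains, lower in the former on 18 of 20 autosomes. Outside wide domains it was 131.7 ± 15.6, and low-ratio domains lay lower than that on 10 of 20. The ratio of this class was 7.20 (7.09 to 7.30) in low-ratio domains, 8.75 (8.60 to 8.90) in high-ratio domains and 7.93 (7.88 to 7.99) outside. Outside wide domains 1 region, on chromosome 19 from 67047832 to 67049005, held 619 input tags, and without it the ratio there was 7.86. Regions of 2 to 5 kb held 156.4 ± 22.4, 200.6 ± 23.4 and 169.1 ± 18.2 tags per kb in low-ratio domains, in high-ratio domains and outside, and low-ratio domains lay below the outside value on 14 of 18 autosomes. At 5 to 10 kb the values were 200.7 ± 40.9, 256.9 ± 35.8 and 202.5 ± 16, so low-ratio pieces of this width held about as many ChIP tags as regions of that width outside wide domains, within the spread over autosomes. Their ratio of 9.74 (9.51 to 9.97) lay below the 12.5 (12.4 to 12.7) of the outside regions. Input was 18.1 ± 2.4 against 14.2 ± 1.8 tags per kb. Only the wide domains were split by ratio, so these differences in density and ratio between the kinds are a description.

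Within low-ratio domains, input density was higher in wider regions. It was 14.1 ± 1.2 tags per kb at 150 bp or less, 16.2 ± 2.0 at 0.5 to 2 kb, 16.9 ± 2.3 for widths of 2 to 5 kb and reached 19.3 ± 1.5 above 10 kb, where 9 regions on 7 autosomes remained. In high-ratio domains it went from 13.3 ± 1.3 to 15.3 ± 1.6, and outside wide domains from 13.9 ± 0.5 to 14.7 ± 2.9. The ratio that chose the domains contains the input tags, so nothing is read from this difference between the kinds. Without the 11 low-ratio domains that held over 20 input tags per kb, the densities at 150 bp or less and over 10 kb were 13.9 and 19.0.

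**Figure D3:**
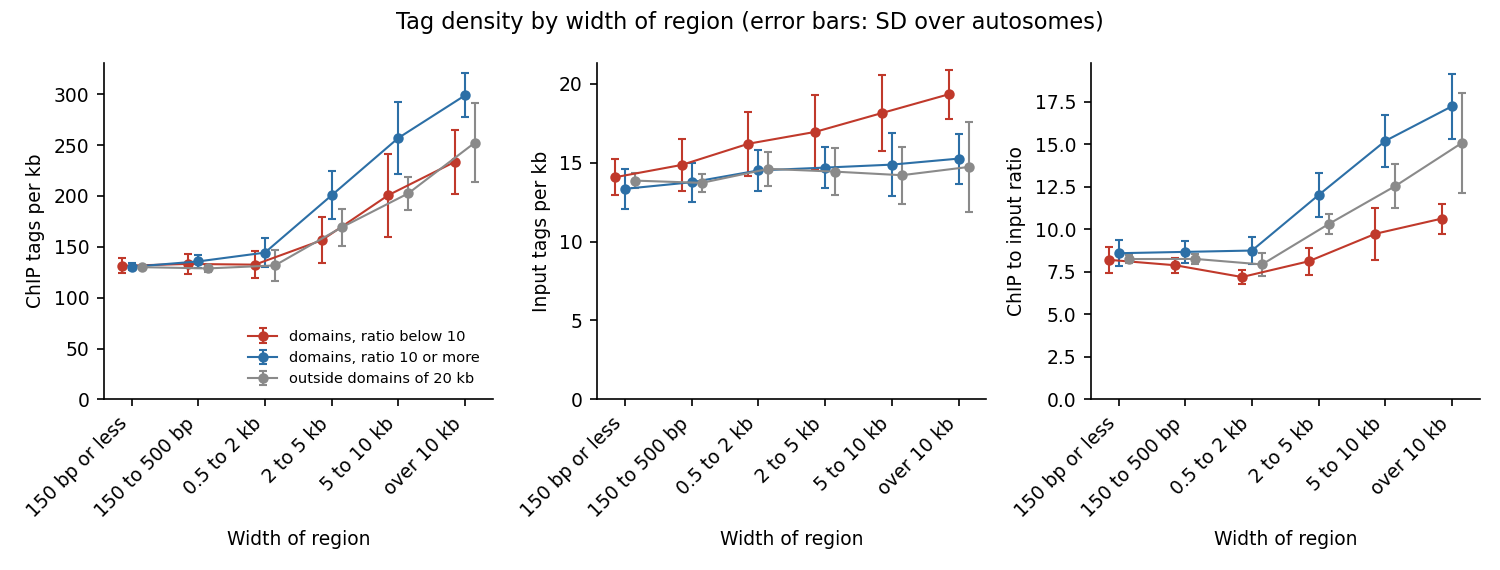
ChIP tags per kb, input tags per kb and ChIP to input ratio (y axes) by width of region (x axis) for regions in low-ratio domains (red), in high-ratio domains (blue) and outside domains of 20 kb (grey). Points are pooled values and bars are SD over autosomes; the 3 kinds lie near 130 ChIP tags per kb at 150 bp or less. Above 0.5 kb blue is highest in ChIP density and ratio, red is highest in input and lowest in ratio, and the ChIP densities of red and grey lie close together at 0.5 to 2 kb and at 5 to 10 kb.

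The low-ratio domains differed among themselves by the width of their pieces. The 76 domains with no region of 2 kb or more were covered to 27.1% in the median, at 125.7 ChIP tags per kb (122.4 and 130.7) and 14.5 input tags per kb. The 117 whose widest region measured 2 to 5 kb were covered to 42.0%, at 137.5 ChIP and 15.3 input tags per kb. In the 56 with a region of 5 kb or more the medians were 58.4%, 166.1 (150.7 and 185.6) and 16.9. Pooled ratios rose in the same order, from 7.47 (7.31 to 7.64) over 7.84 (7.74 to 7.95) to 8.58 (8.46 to 8.69). A ratio below 8 was found in 50 of the 76, 59 of the 117 and 13 of the 56. ChIP density varied within the domains as well. Among regions of 1 kb or more, the highest density over the lowest had a median of 1.41 (1.24 and 1.74) in the 178 low-ratio domains with at least 2 such regions, and of 2.02 (1.57 and 2.60) in 249 high-ratio domains. This quotient grows with the number of regions compared. For domains with 2 to 4 such regions the medians were 1.33 and 1.78, and for those with 5 to 8 they were 1.66 and 2.34. Since the highest and lowest regions were picked by their values, the quotient is a description and carries no test.

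The widest low-ratio domain lay on chromosome 5, from 145006548 to 145158102, with 72 regions over 151.6 kb. It held 156.2 ChIP and 19.1 input tags per kb, a ratio of 7.19 (6.85 to 7.56). Its 3 widest regions, from 145056918 to 145064830, from 145070455 to 145079165 and from 145099679 to 145106173, held 192.4, 166.5 and 159.5 ChIP tags per kb, so none stood far above the domain as a whole. The 124.6 kb domain on chromosome 4 from 180760851 to 180885480 was built from 80 regions and had the lowest input of the 10 widest, 13.9 tags per kb, at a ratio of 9.11 (8.53 to 9.74). Its widest region, from 180841036 to 180848964, reached a ratio of 10.4 (8.48 to 12.8), an interval that includes the value of the whole domain. The second widest, from 180836633 to 180840745, reached 12.2 (9.19 to 16.6), an interval just above that value. The third widest, from 180850788 to 180854665, had 11.2 (8.23 to 15.6). On chromosome 1 the domain from 55065690 to 55180996 held 88 regions, the most of any low-ratio domain, and no region of 5 kb. The widest of these, from 55135405 to 55139287, measured 3.88 kb, or 7.01% of the covered length, the smallest such share among the low-ratio domains.

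Chromosome 3 carried 4 of the 10 widest low-ratio domains. The domain from 162320915 to 162427020 was covered to 36.1% by 77 regions at a ratio of 6.92 (6.37 to 7.53). The domain from 162951188 to 163050915 was covered to 56.9% by 64 regions at 7.21 (6.73 to 7.72). The remaining ones ran from 89778123 to 89862063, at a ratio of 8.71 (8.11 to 9.38), and from 50532894 to 50616231, at 8.58 (7.92 to 9.31). The regions of the domain that starts at 89778123 differed in ratio. Its region from 89834795 to 89839465 had a ratio of 19.4 (14.7 to 26.3) with 51 input tags, while the widest, from 89788215 to 89796193, had 8.05 (6.89 to 9.47). The last members of the 10 widest lay on chromosome 18, from 64453029 to 64547420 at a ratio of 7.83 (7.28 to 8.43), and on chromosome 1, from 167910292 to 167983869 at 6.94 (6.18 to 7.82). The chromosome 1 domain was covered to 28.8%, the lowest share of the 10, and its widest region measured 1.73 kb.

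**Figure D4:**
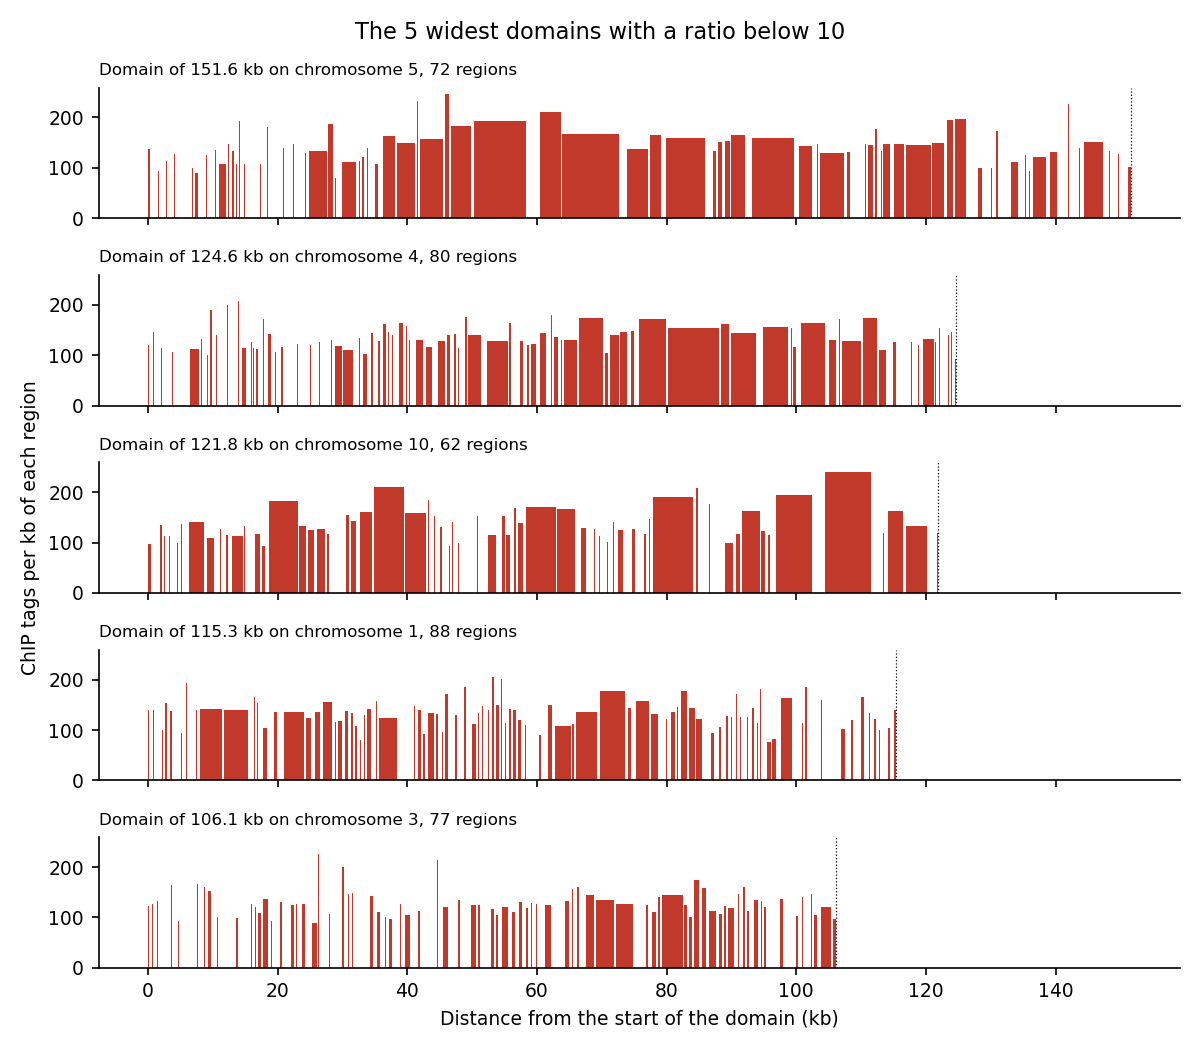
Called regions of the 5 widest low-ratio domains, drawn to scale by distance from the start of each domain (kb); the height of a bar is the ChIP tags per kb of that region and the dotted line marks the end of the domain. Each domain is a series of 62 to 88 regions with open gaps between them, and the wider regions mostly reach 100 to 240 tags per kb.

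The 8 lowest ratios were found in domains without a region of 5 kb and with more input than the median low-ratio domain. The lowest of all was 5.28 (4.49 to 6.24), on chromosome 7 from 125715286 to 125735439, where 15 regions of at most 1.32 kb held 122.4 ChIP and 20.4 input tags per kb. It was followed by 5.95 (5.08 to 6.996) on chromosome 17 from 50457211 to 50482328 and by 5.997 (5.37 to 6.71) on chromosome 9 from 118800940 to 118863509. Next came 6.06 (5.09 to 7.26) on chromosome 8 from 68120486 to 68151684 and 6.14 (5.25 to 7.21) on chromosome 3 from 163059266 to 163092214. The list of the 8 lowest ended with 6.22 on chromosome 16 from 31960300 to 31982117, 6.24 on chromosome 13 from 79327927 to 79349002 and 6.32 on chromosome 1 from 124203088 to 124227076. Since the intervals of these 8 overlap, the depth does not fix their order. All 8 held 17.2 to 20.9 input tags per kb, against that median of 15.3, and 121.6 to 144.1 ChIP tags per kb. Input is part of the ratio that picked these 8. Only 56 of all 249 low-ratio domains had a region of 5 kb or more. Neither more input nor the lack of such a region is therefore read as particular to the 8.

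At the other end, some low-ratio domains held long continuous regions. The highest covered share, 84.4%, was on chromosome 3 from 147717285 to 147755257, with 12 regions at a ratio of 9.83 (9.08 to 10.7). Its first wide region, from 147717738 to 147731865, measured 14.1 kb and had a ratio of 13.0 (11.6 to 14.6), while its second, from 147738903 to 147745950, had 8.31 (7.02 to 9.89). The domain on chromosome 19 from 44042157 to 44071942 was covered to 81.0% and held the widest single region, 14.7 kb from 44044740 to 44059464 at a ratio of 9.43 (8.25 to 10.8). A domain on chromosome 5 from 41312137 to 41337570 was covered to 80.7%. Further wide regions measured 14.2 kb on chromosome 4, from 146469542 to 146483696, 13.7 kb on chromosome 6, from 63024148 to 63037805, and 11.6 kb on chromosome 2, from 47706214 to 47717860. The lowest covered shares were 13.4% on chromosome 1 from 215655484 to 215682206, 13.7% on chromosome 2 from 71260970 to 71282085 and 13.7% on chromosome 14 from 4793471 to 4813546. In these no region exceeded 0.567 kb, and the intervals of their ratios, such as 5.61 to 11.0 on chromosome 2, reached past 10.

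Near the threshold the division is not resolved. The 5 ratios just below 10 ran from 9.93 to 9.99. They belonged to domains starting at 146459819 on chromosome 4, 175890785 on chromosome 5, 89484408 on chromosome 10, 44042157 on chromosome 19 and 16728019 on chromosome 9. The 5 just above ran from 10.01 to 10.04, in domains starting at 112218297 on chromosome 15, 58873106 on chromosome 17, 51171203 on chromosome 20, 43607651 on chromosome 8 and 78485396 on chromosome 14. The counting interval included 10 in 96 of the 249 low-ratio domains and in 69 of the 279 high-ratio domains, and lay wholly below 10 in 153.

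A few low-ratio domains combined much input with much ChIP signal. Input exceeded 20 tags per kb in 11 low-ratio and 4 high-ratio domains, and 7 of the 11 had a ChIP density at or above the lower quartile of high-ratio domains. Input reached 45.6 tags per kb in high-ratio domains. The highest input of a low-ratio domain, 32.8 tags per kb, lay on chromosome 20 from 6744129 to 6779788. That domain held 302.1 ChIP tags per kb at a ratio of 8.10 (7.498 to 8.76). Chromosome 20 held 3 of the 11, the others from 6964249 to 7012020 at 23.9 and from 7458145 to 7481534 at 26.0 input tags per kb. Domains on chromosome 2 from 71172516 to 71211250 and on chromosome 4 from 142060789 to 142083343 held 30.9 and 29.0. ChIP density was uneven in some of them. In the domain from 6964249 on chromosome 20 ChIP density was 588.7 tags per kb between 7009358 and 7012020 but 128.5 between 6989114 and 6990196, a quotient of 4.58, the highest among low-ratio domains. In the chromosome 2 domain the corresponding values were 550.2 and 142.4, a quotient of 3.86. These 5 domains were singled out after their values were seen, and whether copy number or mappability has a part in their input was not tested.

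Low-ratio domains were spread unevenly over the autosomes. Chromosome 1 held 40, chromosome 8 held 30, chromosome 3 held 27, and chromosomes 4 and 10 held 21 each. These 5 chromosomes carried 55.8% of the low-ratio and 40.5% of the high-ratio domains. Per Mb, chromosome 8 had the most, 0.227, and chromosome 6 the least, 0.0128, against 0.0907 over all autosomes. Of the wide domains on each chromosome, low-ratio domains made up 14 of 19 on chromosome 7 (73.7%, 48.8% to 90.9%) and 12 of 17 on chromosome 18 (70.6%, 44.0% to 89.7%). The share was 30 of 47 on chromosome 8 (63.8%, 48.5% to 77.3%). On chromosome 6 it was 2 of 20 (10.0%, 1.23% to 31.7%), the lowest share of all autosomes. Its interval lies below those of chromosomes 1, 3, 4, 7, 8, 9, 10 and 18 and overlaps with those of the rest. Chromosome 6 stands out here as the lowest value, so this is a description and not a test. The intervals take domains as independent draws, which neighbours are not.

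**Figure D5:**
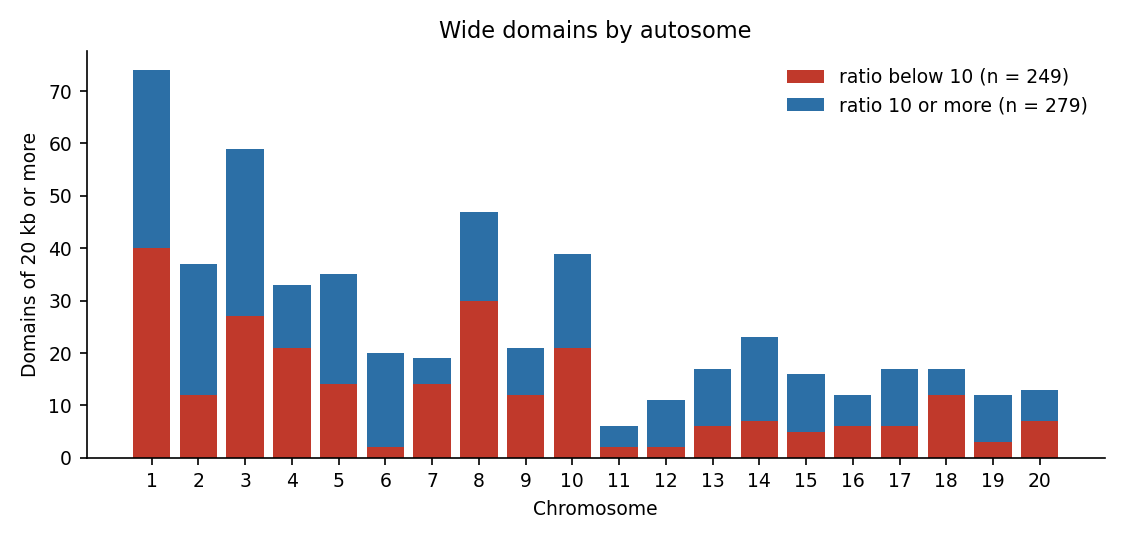
Number of autosomal domains of 20 kb or more on each chromosome, split into low-ratio (red) and high-ratio (blue) domains. Chromosomes 1, 8 and 3 carry the most low-ratio domains (40, 30 and 27), and on chromosome 6 only 2 of 20 are low-ratio.

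Low-ratio domains often lay beside one another. Another low-ratio domain was found within 100 kb of 93 of the 249 (37.3%, 31.3% to 43.7%), and another high-ratio domain within 100 kb of 51 of the 279 high-ratio domains (18.3%, 13.9% to 23.3%). Of the 120 low-ratio domains with any wide domain within 100 kb, the nearest was low-ratio for 90 (75%, 66.3% to 82.5%). Of the 75 high-ratio domains with such a neighbour, the nearest was low-ratio for 31 (41.3%, 30.1% to 53.3%). For reference, low-ratio domains made up 47.2% of all wide domains. These intervals take domains as independent draws, but domains that neighbour each other are counted from both sides. The intervals are therefore not set against that share as a test. Linking low-ratio domains 100 kb or less apart left 156 alone and gave 28 pairs, 8 groups of 3, 2 groups of 4 and 1 group of 5. Neighbours split by a gap just over 3 kb count as separate domains, so part of this proximity depends on the merging distance.

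The group of 5 covered chromosome 10 from 84079149 to 84409035. Its central domain, from 84169855 to 84291677, spanned 121.8 kb with 62 regions at a ratio of 8.18 (7.73 to 8.67). Upstream lay domains of 37.3 kb from 84079149 to 84116411, at 8.29 (7.34 to 9.38), and of 20.2 kb from 84141198 to 84161374, at 6.63 (5.53 to 8.02). Downstream lay domains of 21.1 kb from 84331338 to 84352394, at 6.55 (5.70 to 7.56), and of 50.8 kb from 84358267 to 84409035, at 9.80 (8.87 to 10.8). The gaps between the 5 measured 24.8, 8.48, 39.7 and 5.87 kb. The widest region of the last domain, from 84391668 to 84401367, had a ratio of 12.1 (10.4 to 14.3) and 241.9 tags per kb. At 39.4 kb before the group lay a high-ratio domain of 134.9 kb, from 83904905 to 84039787. That domain was covered to 89.8% at a ratio of 14.05 (13.4 to 14.8), with 220.8 ChIP tags per kb against 166.4 and 13.8 input tags per kb against 17.9 in the central low-ratio domain. The 1 Mb bin with the most low-ratio domains, however, was on chromosome 4 from 146000001 to 147000000, with 7 and no high-ratio domain. They lay as a group of 3 from 146375044 to 146512872 and a group of 4 from 146618856 to 146765264, and their ratios ran from 6.82 to 9.93. The other group of 4 lay on chromosome 8 from 33687410 to 33844494, with ratios from 6.55 to 9.36.

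The sequence around low-ratio domains was rich in further small regions. Regions in the 50 kb beside a domain took no part in its selection, apart from those within 3 kb that merging had already joined to it. Beside low-ratio domains alone 3470 regions lay in 19.2 Mb, or 181.0 per Mb (175.0 to 187.1). Beside high-ratio domains alone the density was 136.5 per Mb (131.9 to 141.2), and farther from any wide domain it was 26.98 (26.8 to 27.2). By autosome the means were 163.3 ± 51.1, 136.8 ± 32.4 and 28.2 ± 6.7 per Mb. The density beside low-ratio domains exceeded that far from wide domains on 20 of 20 autosomes, but that beside high-ratio domains on only 13 of 20. The pooled ratio of these flanking regions was 8.28 (8.15 to 8.41) beside low-ratio and 9.13 (8.99 to 9.28) beside high-ratio domains. This difference did not hold evenly over the autosomes: the ratio was lower beside low-ratio domains on 11 of 20, with a mean difference of -0.36 ± 1.62. ChIP density in the flanks was alike, 139.9 and 141.9 tags per kb, and regions of 2 kb or more made up 1.61% and 2.53% of the flanking regions.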

How the data were processed

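The members and lists described here were chosen with earlier results of these data known. The data are 1 table of regions with no column per library. The series holds 2 H3K27me3 ChIP libraries, and the combined ChIP set of the table is assumed to pool them, which the header does not state. Per the file headers, the authors called regions with HOMER findPeaks (region mode, peak size 150 bp, minimum distance 370 bp) on combined ChIP and input tag directories, with thresholds over input of 4 for the fold and 0.0001 for the Poisson p, and at least 14 tags in a window. The submitters' processing notes also name CASAVA 1.8.2 and Bowtie; no build is named in the sources used here. The deposited ChIP signal is tags scaled to 10000000, and the deposited input signal is tags with 0.5 written for 0, here set to 0. The deposited fold and clonality ratio are the caller's; its score was not used, and its deposited p-value (at most 7.14e-05) only filters the list. ChIP tags were recovered from the header total of 46826704 within 0.23 tags of a whole number.

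Domains, ratios and densities were computed with pandas 2.3.3 on 89523 autosomal regions (7096 without input). The input total of 41.2 M was 41.19 M when worked out from the scaled columns. Intervals on ratios of tags and on shares are exact binomial (Clopper-Pearson), those on regions per Mb exact Poisson, and cover counting error only. Regions within 50 kb of both kinds of wide domain were left out of the flank values. Domains were named by rule: the 10 widest, the 8 lowest ratios, the 3 highest and 3 lowest covered shares, the 5 with the widest regions, 5 on each side of the threshold and the largest group. Descriptions by region width, by parts of the span and by input over 20 tags per kb were added after seeing the data. Merging and selection were run on simulated data, where 100 of 100 planted domains were recovered. The planted ratios lay far from 10, all planted gaps were within the merging distance and input was denser than in the data. The simulation therefore checks the code and not the division near the threshold. Alternatives were merging at 1 and 10 kb, leaving out regions without input, a ratio below 8, flanks of 20 and 100 kb, neighbours within 50 and 200 kb and, added after seeing the data, the other input total and 0.5 kept for 0.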

Additional observations from a re-analysis of the deposited data

Results flagged for a closer look

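The X chromosome lies outside the selection and carried 5 merged domains of 20 kb or more, which held signal above input. Their pooled ratio was 16.5, and their single ratios ran from 11.2 (9.81 to 12.9) to 23.4 (19.8 to 27.9), so 0 of the 5 fell below 10. Their input density was 6.84 to 14.3 tags per kb, and these male rats have a single X in each cell. Being listed required a fold of 4 over input and at least 14 tags in a window, or 93.3 tags per kb of that window. A stitched region can hold less, such as 76.2 tags per kb from 47727677 to 47728596 on chromosome 2. Whether that minimum, the input density or the single X has a part in the 0 of 5 was not tested. With 5 domains nothing is read from it.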

How the results depend on the processing

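The number of low-ratio domains depended on the merging distance. It was 249 at 3 kb, 23 at 1 kb and 1564 at 10 kb, and of the 249 domains 20 overlapped a low-ratio domain at 1 kb and 225 at 10 kb, while 228 overlapped no wide domain at 1 kb. The median covered share went from 40.8% to 76.5% at 1 kb and 12.6% at 10 kb, where longer gaps are joined. The quotient of median ChIP density, low-ratio over high-ratio domains, went from 0.606 to 0.670 and 0.782, and that of input from 1.07 to 1.21 and 1.18. With a ratio below 8 as the threshold 122 domains were left, with quotients of 0.670 for ChIP and 1.14 for input. A low-ratio neighbour was found for 29.7% within 50 kb, 37.3% within 100 kb and 41.0% within 200 kb. Without regions that have no input tag there were 225 domains, and 252 with 0.5 kept for 0. The pooled flank ratio stayed at 8.28 to 8.40 beside low-ratio and 9.13 to 9.27 beside high-ratio domains for flanks of 20 to 100 kb. The median covered share and the quotients of density were judged against their SD over autosomes, the flank ratios and the share with a neighbour against their counting intervals. No paired analysis was possible because the table has no column per library, and leaving out a replicate was not possible for the same reason.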
